A study of Mus musculus with 8 samples.

Results

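The nuclear-coded subunits of the mitochondrial respiratory chain were examined in mouse embryonic stem (ES) cells treated with cisplatin. They were taken as the genes whose array symbol begins with Nduf followed by a subunit letter and number, with Uqcr, with Cox followed by a number from 4 to 8 or with Atp5, together with the 4 genes Sdha to Sdhd. Of the 17098 genes tested, 79 met this rule: 32 in complex I, 4 in complex II, 7 in complex III, 19 in complex IV and 17 in complex V. Ndufa4 and its paralog Ndufa4l2 were counted with complex IV, where the NDUFA4 protein is found. Ndufs5-ps, which the RefSeq annotation lists as a transcribed pseudogene, met the rule and was kept. RefSeq lists 87 protein-coding mouse genes that meet it, of which 9 were not analysed here. Ndufs5 is among the 9, and whether the probe sets of Ndufs5-ps (at 9.77 and 9.49) read Ndufs5 RNA was not tested.

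Both groups were C57BL/6 ES cells at passage 19 to 22, labelled HPRT deficient, which had been grown on feeder cells and then on gelatin before the experiment. One group (4 arrays) received 2.5 µM cisplatin, a platinum compound that crosslinks DNA, and the other (4 arrays) the solvent DMSO, both for 8 hr. Total RNA was amplified and hybridised to Affymetrix 3′ arrays, with 1 array per sample, and levels are log2 intensities. Whether the replicates (numbered 3 to 6 in each group) were separate cultures is not stated, so p-values reflect only the variation among these 8 samples and part of it may be technical. In such bulk samples, fewer cells of a type and less RNA per cell cannot be told apart.

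The respiratory chain lies in the inner mitochondrial membrane. Complex I (NADH dehydrogenase) and complex II (succinate dehydrogenase) pass electrons to coenzyme Q, complex III passes them to cytochrome c and complex IV (cytochrome c oxidase) to oxygen, while complex V (ATP synthase) uses the resulting proton gradient to make ATP. Most subunits are coded in the nucleus, a few in mitochondrial DNA, and transcription factors such as NRF1, GABP (an ETS family factor) and YY1 are known to bind many of the nuclear promoters.

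The arrays of a group correlated with each other at Pearson's r of 0.997 to 0.998 over all genes, with 0.992 to 0.995 between groups. The difference between 3′ and 5′ probe sets of Actb, a measure of RNA integrity, was 0.53 ± 0.01 with cisplatin and 0.54 ± 0.03 in controls (SD, n = 4 each, log2). The 10 ES cell markers measured were all above the level of the background probes. Of these, 5 (Sall4, Zfp42, Lin28a, Utf1 and Nanog) were lower with cisplatin (50%, against 7.69% of all genes). The mean over the list was 11.03 to 11.10 on cisplatin arrays and 11.20 to 11.25 on control arrays. Of 21 feeder fibroblast markers, 9 were below background in both groups. With cisplatin 3 were higher (14.3%, against 11.6% of all genes) and 1 (Fn1) lower (4.76%, against 7.69%). The mean of the 21 markers ranged from 3.70 to 4.06 with cisplatin and from 3.73 to 3.95 in controls. Of 8 hepatocyte and muscle markers, 2 (Des and Myh7) were higher (25%, against 11.6% of all genes) and 3 were below background in both groups. The part of these shifts in the results was not tested. Hprt, which the cells are labelled as lacking, was at 4.84 ± 0.16 with cisplatin and 4.60 ± 0.37 in controls (SD, n = 4 each; adjusted p = 0.373).

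Most subunit genes were slightly higher on the cisplatin arrays, by amounts that mostly did not pass the test across all genes. Cisplatin minus control, the median of the 79 log2 changes was 0.11, a level 7.94% higher, with quartiles of 0.07 and 0.14 and a range of -0.23 to 0.54, against a median of 0.01 over all genes. The difference was positive for 73 genes (92.4%) and negative for 6, against 53.5% positive over all genes. With limma's moderated test, adjusted by Benjamini-Hochberg over all genes with a threshold of 0.05, 7 subunit genes (8.86%) rose and 0 fell, against 11.6% of all genes called higher and 7.69% called lower. The share called higher was therefore near the background. An unadjusted p under 0.05 was found for 32 of the 79 (40.5%), against 31.0% of all genes and 41.0% of genes with a mean level over 8. In 41 of the 79 (51.9%) every cisplatin array was above every control array, against 14.2% of all genes. All 41 had a mean level over 8. The share was 20.8% for all genes over that level and 31.6% for those of them spanning under 10 kb. In 0 of the 79 was every cisplatin array below, against 10.1% of all genes.

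These directions depend on how the arrays are scaled to one another. When each array was centred on its median over all genes, the median of all genes moved to -0.12 and that of the subunits to -0.020. Of the subunit differences 24 were then positive and 55 negative, against 4164 and 12934 over all 17098 genes. With this scaling 2 subunit genes were called higher (Ndufa11 and Cox6b2) and 2 lower (Cox7b2 and Cox8c). Over all genes, 1087 (6.36%) were called higher and 3925 lower. The subunit median was 0.10 above the median of all genes, a gap that centring cannot change because it subtracts 1 value per array from every gene. Quantile normalisation applied again gave 9 called higher (against 9.21% of all genes), 1 lower (Cox8c), 73 positive and a median of 0.11. Centring on the 3586 genes with a mean level over 8, among which 71 subunit genes fall, left 7 called higher, 0 called lower and a median of 0.11.

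**Figure D1:**
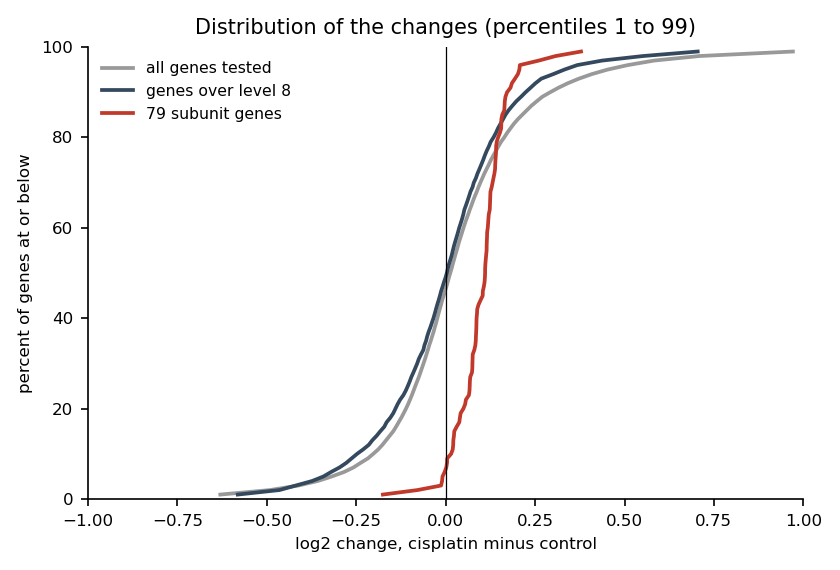
Cumulative distribution of the log2 change (cisplatin minus control, 4 arrays each) for all genes, for genes with a mean level over 8 and for the 79 subunit genes, drawn from the percentiles 1 to 99; the horizontal axis is the change and the vertical axis the percent of genes at or below it. The subunit curve is steep and crosses its middle at 0.11, while the curve of all genes crosses at 0.01 and that of genes over level 8 near 0; with arrays centred on their median the subunit middle moves to -0.020 and that of all genes to -0.12.

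The mean level over the 79 genes was 10.34, 10.39, 10.38 and 10.35 on cisplatin arrays 3, 4, 5 and 6, and 10.24, 10.29, 10.28 and 10.25 on control arrays 3, 4, 5 and 6. From lowest to highest, the replicates came in the order 3, 6, 5 and 4 in both groups, and what the numbers stand for is not stated. All 4 cisplatin arrays were above all 4 control arrays, with group means of 10.37 ± 0.02 and 10.26 ± 0.02 (SD, n = 4 each). The separation held within complexes I to V taken one at a time. The medians were 0.12 for complex I, 0.09 for each of complexes II, III and IV and 0.08 for complex V, and differences between complexes were not tested. Centring on the array median gave -0.01 for complex I, -0.05 for complexes II, III and V and -0.04 for complex IV.

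**Figure D2:**
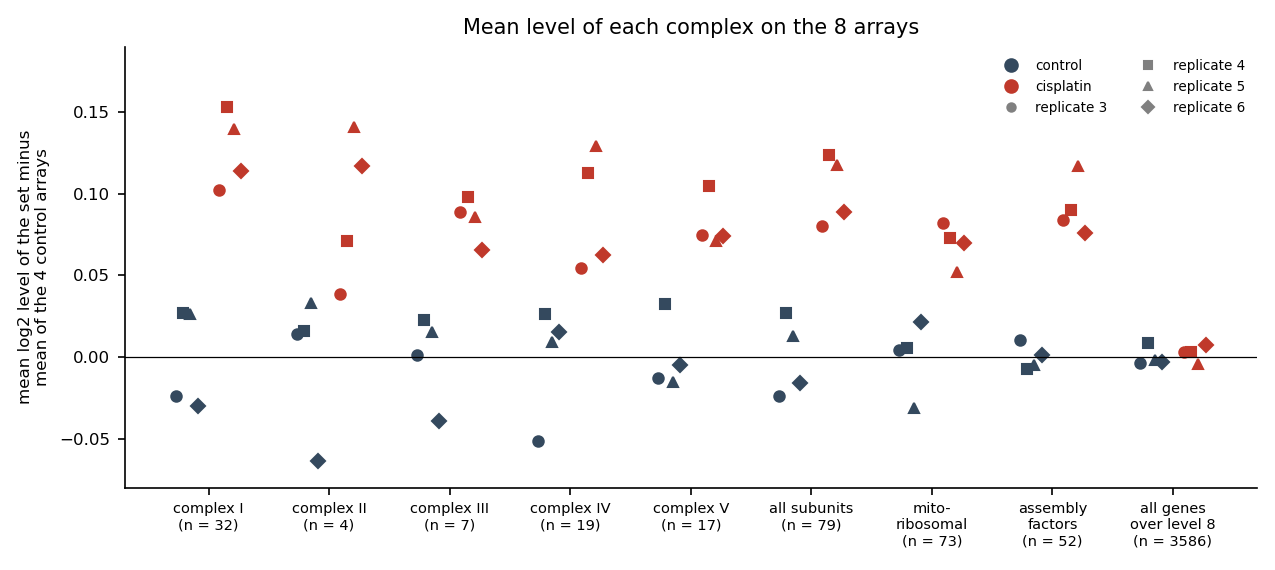
Mean log2 level of each set on each array, minus the mean of the 4 control arrays; points are arrays, colour gives the group and symbol the replicate number. Cisplatin arrays lie above control arrays in each complex, in the mitochondrial ribosomal proteins and in the assembly factors, and the genes over level 8 lie near 0 in both groups; with arrays centred on their median over all genes the median change of complexes I to V is between -0.05 and -0.01.

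The subunit genes varied little between arrays of a group. Their median within-group SD was 0.05 on the log2 scale, against 0.11 for all genes, and limma's default fit, which draws each gene's variance toward one common value, gave them a median standard error of 0.05, against 0.08 for all genes and 0.06 for genes over level 8. Letting that common value follow the mean level (an intensity trend) lowered the median standard error to 0.04, and 42 of the 79 genes were then called higher (23 of complex I, 1 of II, 3 of III, 8 of IV and 7 of V) against 13.5% of all genes, and 0 lower against 9.16% of all genes. All 42 were among the 71 subunit genes over level 8, where 19.7% of genes were called higher with the trend. Leaving out genes that were below background in both groups gave 17 of 76 subunit genes called higher, against 19.2% of genes. The ordinary t statistic without moderation gave 27 higher, against 9.52% of genes. How many subunit genes pass the test thus ran from 7 to 42 across these fits. None of these settings alters the change of a gene, so the median of 0.11 in each is not a check on its size.

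**Figure D3:**
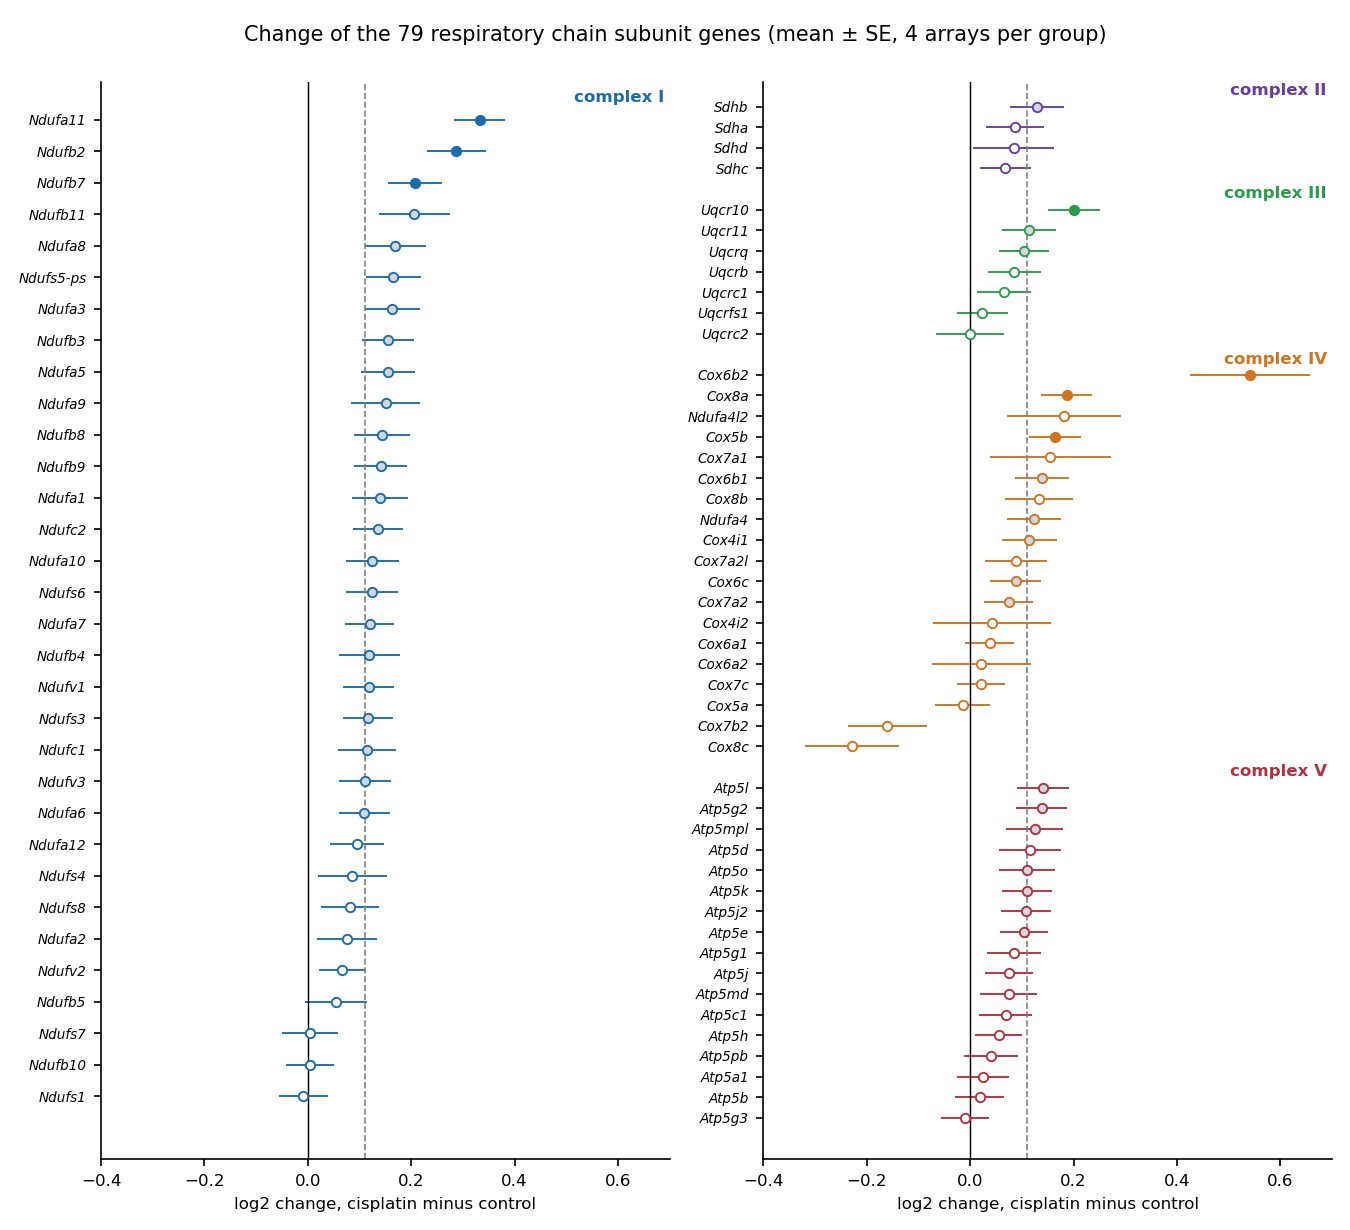
Log2 change (cisplatin minus control, point) with its standard error (bar) for each of the 79 genes, by complex, 4 arrays per group. Filled points passed the test (7 genes), grey-filled points passed only with the intensity trend and open points passed neither; the dashed line is the median of 0.11, which centring arrays on their median moves to -0.020.

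In complex I, 3 of 32 genes rose (9.38%, against 11.6% of all genes), all for accessory subunits: Ndufa11, Ndufb2 and Ndufb7. Accessory subunits surround the catalytic core of the complex, and NDUFA11 and the NDUFB proteins belong to its membrane arm. Ndufa11 was at 11.11, 11.17, 11.14 and 11.08 on cisplatin arrays 3 to 6 and at 10.75, 10.83, 10.82 and 10.76 on control arrays 3 to 6. Its groups lay well apart, with a log2 change of 0.33 ± 0.05 (SE; adjusted p = 0.00126), 1.26-fold. A second Ndufa11 probe set was at 2.89, below background, and averaging both gave 0.14 (adjusted p = 0.144).

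Ndufb2 was at 10.23, 10.32, 10.28 and 10.24 with cisplatin and at 9.97, 10.01, 10.07 and 9.87 in controls. The groups did not overlap, and the change was 0.29 ± 0.06 (SE; adjusted p = 0.00629), 1.22-fold; its other probe set gave 0.24. Ndufb7 was at 10.56, 10.70, 10.65 and 10.69 with cisplatin and at 10.43, 10.43, 10.45 and 10.46 in controls. Cisplatin array 3 was the lowest of its group but still above every control. The change of Ndufb7 was 0.21 ± 0.05 (SE; adjusted p = 0.0184), and its other probe set gave 0.22. Without cisplatin replicate 4 or control replicate 3 the adjusted p of Ndufb7 was 0.0516 and 0.0507, and with arrays centred on their median Ndufb2 and Ndufb7 lost their calls (adjusted p = 0.0665 and 0.285).

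The remaining 29 complex I genes were not called. Of all 32, 31 had a positive difference. In 21 the groups did not overlap, all with cisplatin above, against 14.2% of all genes and 20.8% of genes over level 8. With arrays centred on their median 14 were positive. The uncalled gene with the largest change was Ndufb11, an accessory subunit of the membrane arm, at 11.40, 11.53, 11.50 and 11.44 with cisplatin and 11.20, 11.37, 11.35 and 11.12 in controls. Its groups did not overlap but its control arrays spread widely, and the change was 0.21 ± 0.07 (SE; adjusted p = 0.0636). Ndufb11 was called with the replicate number fitted as a block. The 11 Ndufa genes had a median change of 0.14, the 9 Ndufb genes 0.14, the 2 Ndufc genes 0.13 and the 10 Ndufs and Ndufv genes 0.10 (0.01, 0.01, -0.01 and -0.03 with arrays centred on their median).

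Among the catalytic core subunits of complex I measured here, which carry the flavin and the iron-sulphur clusters or lie beside them, 0 of 6 were called. Ndufs1 was at 10.06, 10.09, 10.02 and 10.09 with cisplatin and 10.09, 10.07, 10.08 and 10.05 in controls, a change of -0.0086 ± 0.047 (SE), and its groups overlapped fully. Ndufs7 differed by 0.0040 ± 0.054, Ndufv2 by 0.07 ± 0.05 and Ndufs8 by 0.08 ± 0.06. The groups of Ndufs3 and Ndufv1 did not overlap, each with a change of 0.12 ± 0.05 (adjusted p = 0.130 and 0.133).

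In complex II, which also works in the tricarboxylic acid cycle, 0 of 4 genes were called, against 11.6% of all genes higher and 7.69% lower. The largest change was that of Sdhb, the iron-sulphur subunit, at 11.05, 11.09, 11.10 and 10.97 with cisplatin and 10.91, 10.96, 10.94 and 10.89 in controls. Its lowest cisplatin array was just above its highest control, and the change was 0.13 ± 0.05 (SE; adjusted p = 0.116). Sdha, the flavoprotein, differed by 0.09 ± 0.06, and the membrane anchors Sdhc and Sdhd by 0.07 ± 0.05 and 0.08 ± 0.08, each with overlapping groups. All 4 differences were negative with arrays centred on their median.

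Complex III had 1 called gene of 7 (14.3%, against 11.6% of all genes called higher): Uqcr10, a small accessory subunit. It was at 11.14, 11.19, 11.08 and 11.10 with cisplatin and 10.94, 10.92, 10.96 and 10.88 in controls. The groups did not overlap, and Uqcr10 rose by 0.20 ± 0.05 (SE; adjusted p = 0.0192), 1.15-fold. That call was lost without cisplatin replicate 4 (adjusted p = 0.0542), with the mean of its probe sets (0.0530), without the kind of probe set that may match several transcripts (0.437) and with centred arrays (0.367). Uqcr11, another small subunit, differed by 0.11 ± 0.05 (adjusted p = 0.173) without overlap. The Rieske iron-sulphur protein gene Uqcrfs1 differed by 0.02 ± 0.05, and the core protein genes Uqcrc1 and Uqcrc2 by 0.07 ± 0.05 and by less than 0.01 in size. Cyc1, which codes cytochrome c1 of the same complex and does not meet the naming rule, differed by -0.03 ± 0.06 (adjusted p = 0.763).

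Complex IV held the largest change and the widest range, with a median of 0.09. Of its 19 genes, 3 were called higher (15.8%, against 11.6% of all genes), and 16 differences were positive (against 53.5% of all genes). With arrays centred on their median 1 was called higher and 2 were called lower, against 1087 and 3925 of all 17098 genes, and 7 were positive. Cox6b2, the testis-enriched paralog of the ubiquitous Cox6b1, was at 9.28, 9.55, 9.77 and 9.32 on cisplatin arrays 3 to 6 and at 8.84, 8.92, 9.16 and 8.85 on control arrays 3 to 6. Replicate 5 was the highest of both groups, and the lowest cisplatin array was above the highest control. Cox6b2 rose by 0.54 ± 0.12 (SE; adjusted p = 0.00885), 1.46-fold, on its single probe set, and was called under every alternative run. Cox6b1 differed by 0.14 ± 0.05 (adjusted p = 0.0958), without overlap.

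Cox8a, the ubiquitous form of the smallest subunit, was at 10.96, 10.99, 11.04 and 10.93 with cisplatin and 10.76, 10.83, 10.81 and 10.76 in controls, without overlap. It rose by 0.19 ± 0.05 (SE; adjusted p = 0.0261), but its adjusted p passed 0.05 without cisplatin replicate 4 or 5 or without control replicate 3, 5 or 6 (up to 0.0738), with the most variable probe set of each gene (0.0534) and with centred arrays (0.440). Cox5b, a zinc-binding subunit on the matrix side, was at 11.88, 11.85, 11.95 and 11.85 with cisplatin and 11.69, 11.75, 11.73 and 11.69 in controls. Its change of 0.16 ± 0.05 (SE; adjusted p = 0.0457) was not called when any one of the 8 arrays was left out (0.0667 to 0.113) or with centred arrays (0.648). The call of Cox5b was also lost with the replicate number fitted as a block. Another bright Cox5b probe set gave 0.17, and a dim one at 3.69 gave -0.22.

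**Figure D4:**
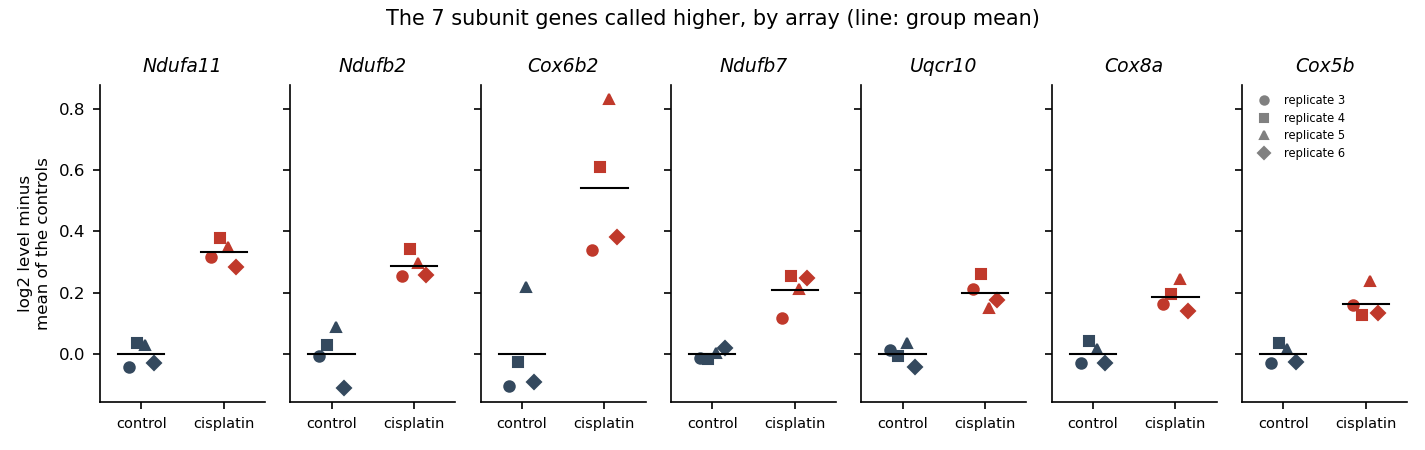
Log2 level on each array, minus the mean of the 4 control arrays, of the 7 subunit genes called higher; symbols give the replicate number and lines the group means. Cisplatin arrays lie above control arrays in each panel, with the widest spread for Cox6b2; with arrays centred on their median only Ndufa11 and Cox6b2 are still called.

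Cox4i1 and Cox5a, nuclear-coded subunits that lie around the mitochondrially coded catalytic core of complex IV, were not called. Cox4i1, the ubiquitous form of subunit IV, differed by 0.11 ± 0.05 (adjusted p = 0.170), without overlap, and Cox5a by -0.01 ± 0.05, with overlap. Of the 8 tissue-restricted or inducible paralogs 3 were below background in both groups: the hypoxia-linked Cox4i2, the testis form Cox7b2 and the muscle form Cox8b. Cox8c, a testis form of subunit VIII, was at 4.59, 4.34, 4.56 and 4.61 with cisplatin and 4.60, 4.98, 4.73 and 4.71 in controls. The groups overlapped by a small margin and the change was -0.23 ± 0.09 (SE; adjusted p = 0.112), which passed the test with arrays centred on their median (-0.36, adjusted p = 0.0158) or quantile-normalised again (-0.35, adjusted p = 0.0216). Ndufa4l2, Cox6a2 and Cox7a1, known from hypoxia and from muscle, differed by 0.18 ± 0.11, 0.02 ± 0.10 and 0.16 ± 0.12, each with overlap.

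In complex V, 0 of 17 genes were called, against 11.6% of all genes higher and 7.69% lower. In 16 the difference was positive, against 53.5% of all genes (2 positive with arrays centred on their median). In 9 the groups did not overlap, with cisplatin above, against 14.2% of all genes and 20.8% of genes over level 8. The largest change was that of Atp5l, subunit g of the membrane part, at 11.64, 11.66, 11.68 and 11.65 with cisplatin and 11.49, 11.57, 11.55 and 11.45 in controls. Its cisplatin arrays lay close together above all controls, with a change of 0.14 ± 0.05 (SE; adjusted p = 0.0777). The catalytic head genes Atp5a1, Atp5b and Atp5c1, for subunits alpha, beta and gamma, differed by 0.02 ± 0.05, 0.02 ± 0.05 and 0.07 ± 0.05.

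The 3 genes that code the same ring subunit c of complex V did not share one value. Atp5g2 was at 11.59, 11.64, 11.66 and 11.55 with cisplatin and 11.48, 11.48, 11.49 and 11.43 in controls, without overlap, a change of 0.14 ± 0.05 (SE; adjusted p = 0.0800). Atp5g1 differed by 0.08 ± 0.05 (adjusted p = 0.318) and Atp5g3 by -0.01 ± 0.05 (adjusted p = 0.913), both with overlapping groups. The differences among the 3 genes were not tested.

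The other probe sets of the same genes, which the choice of 1 per gene had set aside, numbered 56. Of these, 44 had a positive change and 12 a negative one, 2 were called higher and 0 lower (8.60% and 7.69% of all probe sets), and 41 of the 47 above background were positive. In 0 genes were probe sets called in opposite directions. For 18 of the 79 genes each probe set is of a kind that may match several transcripts, and without such probe sets 4 of 61 genes were called higher, against 10.4% of all genes under that setting.

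Gene span moved with the changes. The subunit genes are short, with a median span of 7.08 kb against 20.2 kb over all genes. Among genes with a mean level over 8, the 1032 spanning under 10 kb had a median change of 0.06, with 181 called higher and 37 lower, and the 2553 spanning 10 kb or more had a median of -0.03, with 244 higher and 459 lower. The 50 subunit genes under 10 kb had a median of 0.12 and the 21 of 10 kb or more 0.09, and all 7 called genes were among the 50. Centring arrays on their median gave -0.07 and -0.16 for the short and long genes and -0.02 and -0.04 for the short and long subunit genes. These classes were chosen after the data were seen, and the part of gene span in the result was not tested.

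The promoter sequences of the subunit genes were searched for known motifs. RefSeq windows of 300 bases, from 250 before to 50 after the start (GRCm38.p6), were matched by gene ID for 63 of the 79 genes. They were searched on both strands for the NRF1 motif (GCGCA, any base, then GCGC), the ETS core motif CCGGAAG bound by GABP and the YY1 motif AANATGGC, and matches to different motifs overlapped in 0 of these windows. A gene was counted when any of its windows held the motif, since some genes have more than 1. The NRF1 motif was found for 16 of the 63 genes (25.4%), against 8.39% of the 13514 array genes with a window and 5.19% of all 27025 genes with a window. For the ETS motif the count was 15 (23.8%), against 15.1% and 9.93%, and for the YY1 motif 16 (25.4%), against 8.14% and 6.96%; the YY1 motif was added after the data were seen. At least 1 of the 3 was found for 40 genes (63.5%), against 27.2% of array genes with a window.

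The windows printed 5′ to 3′ on the gene's strand are those of the called genes Ndufa11 (chr17:56717512-56717811, plus strand), Ndufb7 (chr8:83566508-83566807, plus) and Cox8a (chr19:7217567-7217866, minus), of Cox6b2 (chr7:4753045-4753344, minus) as the gene with the largest change, and of Sdha (chr13:74350191-74350490, minus) as an uncalled gene with 3 NRF1 matches. Capitals mark motif matches: NRF1 in Ndufa11 and Sdha, and ETS in Ndufb7 and, on the opposite strand, at 2 places in Cox8a. Cox6b2 holds 0 matches to the 3 motifs. The windows of the other called genes, Ndufb2, Uqcr10 and Cox5b, also hold 0 matches and are not printed.
Ndufa11: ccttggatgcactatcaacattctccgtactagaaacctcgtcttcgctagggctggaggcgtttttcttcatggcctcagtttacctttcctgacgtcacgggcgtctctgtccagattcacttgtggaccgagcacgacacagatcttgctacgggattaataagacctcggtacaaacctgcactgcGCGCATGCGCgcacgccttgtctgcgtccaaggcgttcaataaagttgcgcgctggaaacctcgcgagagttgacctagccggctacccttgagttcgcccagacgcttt
Ndufb7: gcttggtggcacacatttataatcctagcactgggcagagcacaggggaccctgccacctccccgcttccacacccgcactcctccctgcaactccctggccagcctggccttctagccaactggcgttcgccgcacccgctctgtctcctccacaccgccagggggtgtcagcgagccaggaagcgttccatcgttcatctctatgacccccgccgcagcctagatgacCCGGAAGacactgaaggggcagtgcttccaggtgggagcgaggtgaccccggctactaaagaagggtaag
Cox8a: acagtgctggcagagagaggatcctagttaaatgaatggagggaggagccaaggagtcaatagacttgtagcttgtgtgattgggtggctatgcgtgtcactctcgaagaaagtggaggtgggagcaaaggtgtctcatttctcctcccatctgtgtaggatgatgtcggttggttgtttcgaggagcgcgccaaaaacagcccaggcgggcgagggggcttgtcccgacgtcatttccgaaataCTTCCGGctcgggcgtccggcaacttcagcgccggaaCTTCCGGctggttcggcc
Cox6b2: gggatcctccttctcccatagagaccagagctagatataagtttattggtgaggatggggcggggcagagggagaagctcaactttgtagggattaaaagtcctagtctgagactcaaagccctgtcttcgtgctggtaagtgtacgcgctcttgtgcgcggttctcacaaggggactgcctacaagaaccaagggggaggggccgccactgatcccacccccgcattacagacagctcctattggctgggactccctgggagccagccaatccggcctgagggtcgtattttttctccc
Sdha: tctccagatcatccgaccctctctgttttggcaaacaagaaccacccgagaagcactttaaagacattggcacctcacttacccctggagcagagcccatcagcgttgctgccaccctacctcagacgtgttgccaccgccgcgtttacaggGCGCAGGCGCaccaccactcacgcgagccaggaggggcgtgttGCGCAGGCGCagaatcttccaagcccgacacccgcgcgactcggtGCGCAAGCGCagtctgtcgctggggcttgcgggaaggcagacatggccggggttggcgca

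The changes of genes with and without a match had close medians. The median change was 0.11 for genes with the NRF1 motif and 0.12 for those without, 0.11 and 0.12 for the ETS motif and 0.10 and 0.12 for the YY1 motif. Called genes numbered 1 of 16 with the NRF1 motif (Ndufa11), 2 of 15 with the ETS motif (Ndufb7 and Cox8a) and 0 of 16 with the YY1 motif. Without the motif they numbered 6 of 47, 5 of 48 and 7 of 47, and 11.6% of all genes were called higher. These are descriptions of letters in a fixed window and were not tested.

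Genes for regulators of the respiratory genes were mostly lower: of 15 such genes, 8 were lower and 1 higher with cisplatin, against 7.69% of all genes lower and 11.6% higher, with a median of -0.18 (10 lower, 0 higher and -0.31 with arrays centred on their median). Nrf1, which codes the factor that binds the NRF1 motif, was at 7.90, 7.71, 7.72 and 7.91 with cisplatin and 8.59, 8.56, 8.59 and 8.59 in controls. The groups were far apart, and Nrf1 fell by 0.77 ± 0.06 (SE; adjusted p = 4.74e-05). Esrrb, an orphan nuclear receptor active in ES cells, fell by 0.55 ± 0.07 (adjusted p = 0.000498) and the coactivator gene Ppargc1b by 0.64 ± 0.10 (adjusted p = 0.00158).

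Of the genes for GABP subunits in the list, Gabpb1 fell by 0.39 ± 0.07 (adjusted p = 0.00287), a call that was lost with the mean of its probe sets (0.544), and Gabpa by 0.27 ± 0.05 (adjusted p = 0.00395). Hcfc1, Tead4 and Pprc1 also fell, and Yy1 was at a change of -0.17 ± 0.05 (adjusted p = 0.0503). Esrra, a nuclear receptor known to act on respiratory genes, rose by 0.27 ± 0.07 (adjusted p = 0.0194).

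Assembly factors, which build the complexes and are absent from the finished enzymes, included genes that changed in both directions. Of 52 measured, 10 were higher (19.2%, against 11.6% of all genes) and 3 lower (5.77%, against 7.69%), with a median of 0.08. With arrays centred on their median 2 were higher and 8 lower, against 1087 and 3925 of all 17098 genes, and the median was -0.05. Sdhaf1, which helps insert iron-sulphur clusters into complex II, was at 8.53, 8.86, 8.77 and 8.66 with cisplatin and 8.03, 8.07, 8.00 and 7.95 in controls. Its groups were far apart and it rose by 0.69 ± 0.07 (SE; adjusted p = 0.000205); Sdhaf4 rose by 0.30 ± 0.06 (adjusted p = 0.00592).

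Among 16 genes listed for complex I assembly, 3 were higher (18.8%, against 11.6% of all genes): Tmem70 by 0.27, Ndufaf1 by 0.21 and Ndufaf8 by 0.20. Ndufaf5 alone fell, by 0.26 (6.25%, against 7.69% of all genes). With arrays centred on their median 0 of the 16 were higher and 3 lower, against 1087 and 3925 of all 17098 genes. Among 21 complex IV assembly genes, 5 were higher (23.8%, against 11.6% of all genes), among them Coa5 (0.41), Cox14 (0.24) and Pet100 (0.20). Cox10, which makes the heme A precursor, fell by 0.42. With centred arrays 1 of the 21 was higher and 2 were lower, against the same counts over all genes. Coa5 was at 9.42, 9.54, 9.54 and 9.45 with cisplatin and 9.08, 9.07, 9.06 and 9.09 in controls, without overlap, on a probe set of a kind that may match several transcripts. Of 5 complex III assembly genes, Uqcc1 fell by 0.29, and 0 of the 6 listed for complex V were called. Tmem70 was counted with complex I only, so the complex V count leaves it out. The calls of Ndufaf1 (adjusted p up to 0.105), Ndufaf8 (0.0924) and Pet100 (0.0850) were lost when single arrays of either group were left out, and that of Uqcc1 with the mean of its probe sets (0.0517).

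The mobile carriers and coenzyme Q genes moved in both directions. Of 17, 4 were higher (23.5%, against 11.6% of all genes) and 2 lower (11.8%, against 7.69%). With arrays centred on their median 0 were higher and 2 lower, against 1087 and 3925 of all 17098 genes. Coq2 (0.32) and Coq4 (0.22) of coenzyme Q synthesis rose, while Pdss2, which makes the coenzyme Q tail, fell by 0.52 ± 0.09 (adjusted p = 0.00255). Gpd2, the mitochondrial glycerol-3-phosphate dehydrogenase, fell by 0.38. Coq2 was not called without control replicate 3 (adjusted p = 0.0528), nor Coq4 without control replicate 4 (adjusted p = 0.0501). Cycs, somatic cytochrome c, differed by 0.08 ± 0.05 (adjusted p = 0.389).

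Of 14 genes for mitochondrial genome maintenance and transcription, 4 were higher (28.6%, against 11.6% of all genes) and 0 lower (against 7.69%). With arrays centred on their median 3 were higher and 5 lower, against 1087 and 3925 of all 17098 genes. Rrm2b, the p53-inducible ribonucleotide reductase subunit, was at 5.74, 5.63, 5.82 and 5.72 with cisplatin and 5.06, 5.12, 5.41 and 5.20 in controls. Without overlap between groups, it rose by 0.53 ± 0.08 (SE; adjusted p = 0.00142). Top1mt, the mitochondrial topoisomerase, rose by 0.80 ± 0.13, the nuclease gene Mgme1 by 0.31 (not called on its most variable probe set, adjusted p = 0.710) and the helicase gene Twnk by 0.25. Tfam, which packages and transcribes mitochondrial DNA, differed by 0.01 ± 0.05 (adjusted p = 0.934).

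The 73 mitochondrial ribosomal protein genes, also nuclear-coded, had a median of 0.06 with 10 higher (a share near the 11.6% of all genes) and 1 lower (against 7.69%). With arrays centred on their median 2 were higher and 8 lower, against 1087 and 3925 of all 17098 genes, with a median of -0.07. Mrps6 rose by 0.53 ± 0.06 (adjusted p = 0.000332), Mrpl16 by 0.33 ± 0.06 and Mrpl41 by 0.24 ± 0.05, and Mrps27 fell by 0.35 ± 0.06. The call of Mrpl41 was lost with the mean of its probe sets (adjusted p = 0.0951). Of 16 tricarboxylic acid cycle genes 0 were called by limma, against 11.6% of all genes higher and 7.69% lower, with a median of 0.01. With centred arrays 0 were higher and 3 lower, against the same counts over all genes, and the median was -0.12.

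**Figure D5:**
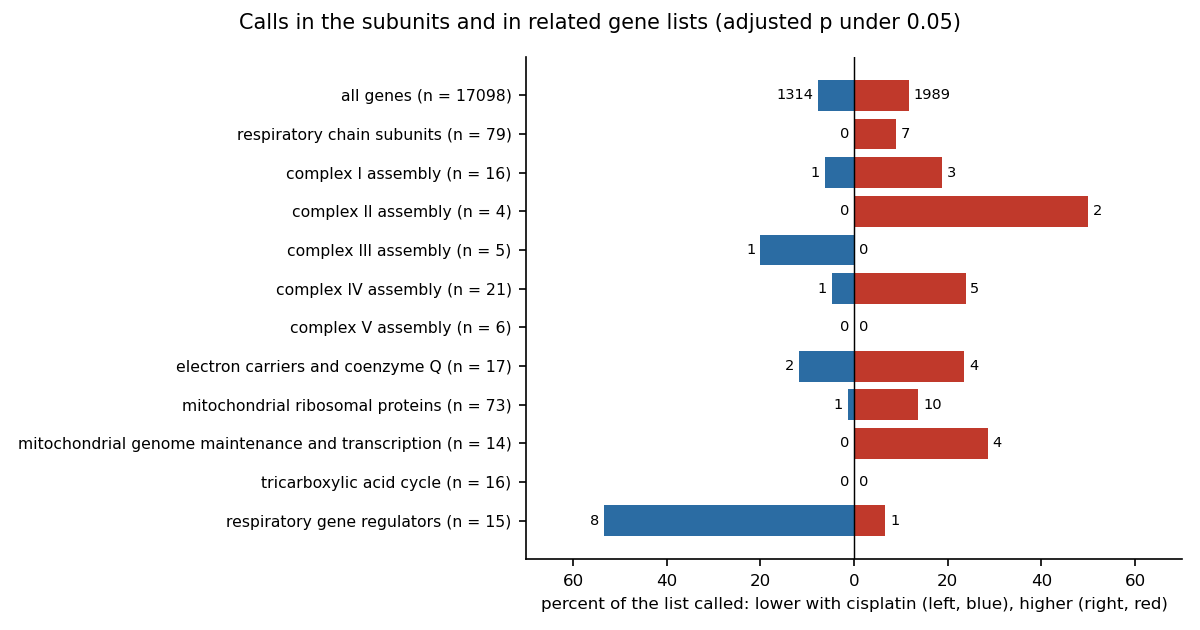
Percent of each gene list called lower (left, blue) or higher (right, red) with cisplatin at an adjusted p under 0.05, with the number of genes beside each bar and the list size in parentheses. The subunits have 7 higher and 0 lower calls and the regulators 1 and 8. With arrays centred on their median these become 2 and 2 for the subunits and 0 and 10 for the regulators. All 17098 genes then have 1087 higher and 3925 lower calls.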

How the data were processed

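RNA from 8 ES cell samples (4 per group) was measured on Affymetrix 3′ arrays. The authors deposited log2 values per probe set; RMA and limma are named in the submitters' processing notes, with versions not given in the sources used here. Of 45141 probe sets, 104 are controls, 28898 have 1 gene in the platform annotation, 551 several and 15588 none listed. Where a gene had several, the one with the highest mean level was kept, which left 17098 genes, of which 16937 matched the RefSeq table. Groups were compared with limma 3.58.1 in R 4.3.3 (lmFit and eBayes, group as the only term), adjusted by Benjamini-Hochberg over all genes. Precision is limited by the number of arrays. A change is cisplatin minus control in log2 units, and a gene counts as called at an adjusted p under 0.05.

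Sequence windows were searched with Python 3.11.15, and figures drawn with matplotlib 3.10.9. On simulated data with 17098 genes, 100 of 100 genes changed by 1 and 74 of 100 changed by 0.5 were called, with 11 false calls. Changes as small as the subunit median of 0.11 were not simulated, so their recovery is not known. Named genes are all called subunits, the uncalled subunit with the largest change in each complex, core subunits, restricted and ring paralogs, up to 4 called genes with the smallest p in each related list, and Hprt; Cyc1, Cycs, Tfam, Yy1, Esrra, Gabpa, Hcfc1, Tead4, Pprc1, Nanog and Cox6b1 were added after their values were seen. The members and lists were chosen with earlier results of these data known. Alternatives covered the probe set of a gene, the scaling, the spread, the threshold, the replicate number as a block and leaving out each array.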

Additional observations from a re-analysis of the deposited data

Results flagged for a closer look

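In 12 genes named or examined here, 1 array of a group of 4 lay far from the other 3, by a gap divided by the group's range above Dixon's critical value; over 236 such groups, chance alone passes that value in about 1 of 20. Low arrays among the subunits were control 6 for Atp5g2 (0.899) and cisplatin 4 for Ndufb3 (0.904). High arrays were control 4 for Atp5o (0.841) and Cox7a2 (0.936), cisplatin 5 for Cox5a (0.963) and Ndufb5 (0.935), and cisplatin 4 for Cox6a1 (0.852). Cox6a2 passed in both groups, with cisplatin 4 high (0.899) and control 5 high (0.873). Outside the subunits, low arrays were cisplatin 6 for Ndufaf5 (0.971), control 4 for Nrf1 (0.869), and cisplatin 5 for Pdss2 (0.951) and Pet100 (0.853). For Nrf1 the control 4 array was at 8.56 against 8.59 for the other 3, far less than the difference between groups.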

How the results depend on the processing

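The 79 genes gave 7 calls higher and 0 lower as reported. Centring arrays on their median gave 2 and 2, with a median change of -0.020, and 1087 genes higher and 3925 lower over the whole table, so that 21.7% of calls were higher in place of 60.2%; quantile normalisation again gave 9 subunits higher, 1 lower, a median of 0.11 and 47.9% of calls higher. Without probe sets that may match several transcripts 4 subunits were called higher, without dim genes 17, with the intensity trend 42, with the ordinary t statistic 27 and at a threshold of 0.01 3, where 1113 genes were higher and 742 lower. Leaving out 1 array at a time gave 3 to 7 subunits higher (3 without cisplatin replicate 4, 4 without control replicate 3), 0 lower, and a median of 0.10 to 0.12. Among genes called as reported, signs that turned included that of Cox5b (-0.22 with its most variable probe set and without probe sets that may match several transcripts). Those of Coa5 (-0.0041 without such probe sets) and Mrpl41 (-0.0073 with its most variable probe set) turned too. Apart from the change of probe set, the cause was not tested. Uncalled subunits included, 68 of the 79 were positive with the most variable probe set and 24 with centred arrays, against 73 as reported. Arrays sharing a replicate number (3 to 6) correlated at 0.20, 0.18, 0.20 and 0.06 in their deviations from the group means. Arrays with different numbers correlated at -0.17 to 0.11, and control 6 correlated better with cisplatin 3 (0.11) than with its own number. Whether the numbers mark pairs is not stated, and the main test did not use them. With the replicate number as a block, 7 subunits were called higher and 0 lower, with Cox5b lost (adjusted p = 0.0654) and Ndufb11 gained (0.0415), and 2111 genes were higher and 1336 lower over the whole table. Centring on genes over level 8 was added after seeing the data.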
